A study of Mus musculus with 9 samples.

Results

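The genes of the Wnt pathway that act at the cell surface, together with its classical feedback genes, were followed across 3 genotypes of mouse mammary cells. Members were all genes with a Wnt, Fzd, Sfrp, Dkk or Rspo symbol followed by a number, with Lgr4, Lgr5, Lgr6, Lrp5, Lrp6, Wif1, Porcn, Znrf3, Rnf43, Axin2, Lef1, Tcf7, Nkd1, Nkd2 and Notum. This rule found 57 of the 55450 genes in the count table, namely 19 Wnt ligands, 10 Frizzled receptors, 2 LRP co-receptors, 9 secreted antagonists, 7 R-spondins and LGR receptors, 4 feedback inhibitors, 2 membrane ubiquitin ligases, 2 nuclear factors, the ligand acyltransferase Porcn and 1 antisense RNA, Rspo4os. RNA was sequenced from live EYFP+ cells sorted by FACS from the mammary glands of adult mice that had never been pregnant, with 3 libraries per genotype. Controls carried K8CreERT2, a tamoxifen-inducible Cre driven by the Krt8 promoter of luminal cells, and the lsl-EYFP reporter, and both other genotypes carried these alleles too. LATS1/2-KO mice had floxed Lats1 and Lats2 in addition, and LATS1/2-Sox9-KO mice had floxed Lats1, Lats2 and Sox9. All mice, controls included, received 2 mg of tamoxifen on each of 5 days, and cells were sorted once 7 days had passed since the final dose. Total counts per library ran from 44167762 to 61967651. The ages of the mice were not analysed here, and the labels do not say that each library came from a separate mouse, so the p-values measure the spread between these libraries.

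Wnt proteins are secreted, lipid-modified ligands. They bind Frizzled receptors, and with LRP5 or LRP6 as co-receptor they stabilize β-catenin, which then works with TCF and LEF factors at target genes, while other Wnt proteins signal through Frizzled and ROR receptors without β-catenin. In the mammary gland, WNT4 is made by hormone-sensing luminal cells downstream of progesterone, and Wnt signals sustain stem cells of the basal layer. LATS1 and LATS2 are the kinases of the Hippo pathway that hold back YAP and TAZ, and SOX9 is a transcription factor of luminal progenitors.

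RefSeq promoters on GRCm38.p6 were given for 36 of the 57 members, as 44 windows of 300 bases from 250 before to 50 after a start site. The 250 bases before the start site are shown for Wnt7a, Wnt9a, Wnt11 and Nkd2, members with low or no counts in control that rose in the LATS1/2-KO-labelled libraries. Capitals mark a TCF/LEF match, and the strand is that of the gene.
Wnt7a, chr6:91411354-91411603, minus strand: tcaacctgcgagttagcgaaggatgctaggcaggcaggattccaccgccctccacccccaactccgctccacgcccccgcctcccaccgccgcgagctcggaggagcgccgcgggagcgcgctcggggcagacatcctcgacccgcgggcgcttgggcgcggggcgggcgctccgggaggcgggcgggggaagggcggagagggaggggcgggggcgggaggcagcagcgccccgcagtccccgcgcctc
Wnt9a, chr11:59306680-59306929, plus strand: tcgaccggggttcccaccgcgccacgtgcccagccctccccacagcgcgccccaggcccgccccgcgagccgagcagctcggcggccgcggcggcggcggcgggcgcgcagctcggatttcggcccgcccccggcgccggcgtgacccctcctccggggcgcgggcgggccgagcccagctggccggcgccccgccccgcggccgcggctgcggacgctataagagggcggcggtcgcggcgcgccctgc
Wnt11, the upstream of its RefSeq start sites, chr7:98834862-98835111, plus strand: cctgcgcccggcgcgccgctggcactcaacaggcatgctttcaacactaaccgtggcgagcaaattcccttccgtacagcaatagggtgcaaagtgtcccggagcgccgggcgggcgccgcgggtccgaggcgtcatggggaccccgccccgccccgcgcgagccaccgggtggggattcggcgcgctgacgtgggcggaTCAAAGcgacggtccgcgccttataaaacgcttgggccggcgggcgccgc
Nkd2, chr13:73847632-73847881, minus strand: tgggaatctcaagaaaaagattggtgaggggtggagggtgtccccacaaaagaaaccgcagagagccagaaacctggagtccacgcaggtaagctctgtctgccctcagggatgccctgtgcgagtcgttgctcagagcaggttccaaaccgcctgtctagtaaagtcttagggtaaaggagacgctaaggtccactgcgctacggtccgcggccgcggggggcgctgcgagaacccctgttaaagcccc
In base composition, the Wnt7a, Wnt9a and Wnt11 windows lay above the upper quartile of all promoters and the Nkd2 window lay within the quartiles. G and C made up 77.6% of the Wnt7a window, 84.4% of that of Wnt9a, 70.8% of that of Wnt11 and 58.4% of that of Nkd2, against a median of 52.4% over the 250 bases before 32851 RefSeq start sites (interquartile range 45.2% to 61.2%). They held 34, 48, 37 and 14 CpG dinucleotides in the same order, against a median of 6 (interquartile range 2 to 16). The letters CTTTGA (TCF/LEF), GGAATG (TEAD) and ACAATG (SOX) were searched on both strands of the whole 300 bases, and no match overlapped another. Wnt11 held 1 TCF/LEF match, starting 50 bases before the start site, and the Wnt7a, Wnt9a and Nkd2 windows held no match to any of the letters. TCF/LEF letters stood in 5 of the 44 member windows against 16.003% of all promoters, TEAD letters in 2 of 44 against 14.7%, and SOX letters in 4 of 44 against 12.6%. A match describes the sequence only.

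The targeted genes were examined before the members. Lats1 had 5672, 5929 and 5940 normalized counts in the control libraries, 2090, 1923 and 2336 in the LATS1/2-KO-labelled libraries, and 2058, 1844 and 1709 in the LATS1/2-Sox9-KO-labelled libraries. Normalized counts are raw counts brought to a common effective depth. Lats1 fell with the label, with a log2 fold change of -1.47 (SE 0.11, adjusted p = 7.07e-06, edgeR) in the LATS1/2-KO-labelled libraries against control. Lats2 did not fall, with 1039, 865 and 1220 in control, 1256, 1434 and 1723 in the LATS1/2-KO-labelled libraries and 1957, 1580 and 1240 in the LATS1/2-Sox9-KO-labelled libraries (log2 fold change 0.50, SE 0.20, adjusted p = 0.0571, edgeR, for LATS1/2-KO against control). Counts over whole genes do not show which exons were lost. Sox9 was already lower in the LATS1/2-KO-labelled libraries than in control, by -1.15 log2 (SE 0.19, adjusted p = 0.000682, edgeR), and its libraries overlapped between both deletion genotypes, where the log2 difference was -0.40 (SE 0.19, adjusted p = 0.250, edgeR). Without LATS1/2-KO replicate 1, the Sox9 log2 fold change against control was -0.97, short of the threshold on size. For these reasons the deletion groups are named by their labels.

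The luminal keratins Krt8 and Krt18 were abundant in all 9 libraries, at a minimum of 168814 and 239706 normalized counts. Markers of other cell types are given as counts of called genes in LATS1/2-KO against control, where 17.1% of all genes tested were higher and 17.5% lower, and as summed levels. Of 9 markers of hormone-sensing luminal cells, 7 fell in the LATS1/2-KO-labelled libraries against control, and their summed normalized count was 288469, 264687 and 373991 in control, 31740, 20000 and 18631 in the LATS1/2-KO-labelled libraries and 65428, 50785 and 43409 in the LATS1/2-Sox9-KO-labelled libraries. Prlr led these sums in control, with 175237, 152431 and 201231, and Ly6a was the most abundant by mean under both deletion labels, with 7714, 14545 and 7287 in the LATS1/2-KO-labelled and 57356, 44239 and 34801 in the LATS1/2-Sox9-KO-labelled libraries. Fewer cells of a type and less RNA per cell cannot be told apart in such sorted pools. Of 10 fibroblast and stromal markers, 4 rose and 2 fell in the same comparison, with summed counts of 2665, 4544 and 9901, then 10326, 2812 and 3425, then 3175, 4272 and 7724 in the same order of groups. Dcn was the most abundant of them in control, and Col3a1 was the most abundant by mean under both deletion labels. Of 7 tested immune markers, 2 rose, with a summed count of 1141, 835 and 732 in control against 4630, 3210 and 2140, and 3622, 3823 and 5001. Csf1r made up most of the sums under both deletion labels, with 208, 128 and 139 in control, then 2804, 2374 and 1753, then 2716, 3122 and 3875. Cd68 was the most abundant by mean in control, at 406, 404 and 398 against 315, 393 and 229 in the LATS1/2-KO-labelled libraries. It was among the 5 tested immune markers that did not pass, and Cd3e was at 0 in all 9 libraries. Of 6 adipocyte markers, 4 rose and 1 fell, with summed counts of 339, 268 and 568 in control, 499, 3542 and 1671 in the LATS1/2-KO-labelled libraries and 96.5, 1216 and 1097 in the LATS1/2-Sox9-KO-labelled libraries, and Fabp4 the most abundant. Among the remaining lists, 5 of 12 basal markers rose and 4 fell, with sums of 199129, 179007 and 108700 in control, 290441, 169797 and 166096 in the LATS1/2-KO-labelled libraries and 164302, 283600 and 388980 in the LATS1/2-Sox9-KO-labelled libraries. Igfbp5 made up most of the control sums (193595, 172227 and 102835) and fell (log2 fold change -3.85, SE 0.64, adjusted p = 0.000628, edgeR), while Krt14 led under both deletion labels and rose from 909, 501 and 606 to 252969, 140251 and 139506 (8.04, SE 0.52, adjusted p = 3.12e-06). Of 9 luminal progenitor markers, led by mean by Ltf in control and by Lcn2 under both deletion labels, 1 rose and 1 fell (201797, 240748 and 161190, then 145546, 205833 and 167214, then 94825, 82214 and 91171). Of 5 pan-luminal markers, led by Krt18, 2 fell (725323, 724248 and 817379, then 878058, 832175 and 842692, then 1460560, 1349620 and 1268160). Of 6 endothelial markers, led by mean by Pecam1 in control and LATS1/2-KO and by Kdr in LATS1/2-Sox9-KO, 1 rose (435, 408 and 661, then 732, 694 and 647, then 244, 772 and 757), and of 4 tested nerve markers, led by Sox10, 3 fell (3291, 3924 and 1825, then 1833, 2691 and 2516, then 2337, 1913 and 2006). The part of these cells in the results below was not tested, except where a value is given.

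Single libraries stood apart within each group. Control replicate 3 differed from control replicates 1 and 2 by a chi-square per gene of 131 and 116, against 29.5 between those replicates. LATS1/2-KO replicate 1 had correlations of 0.957 and 0.960 with the other libraries of its label, against 0.981 between them, across genes on the log scale. LATS1/2-Sox9-KO replicate 1 differed from replicates 2 and 3 by a chi-square per gene of 87.5 and 123, against 17.9 between those. No pair of libraries in a group agreed within sampling noise, so all 9 were kept.

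The comparison of the LATS1/2-KO-labelled libraries with control addresses how the Wnt genes differ with the LATS1/2-KO label. Calls required a log2 fold change beyond 1 in either direction together with an adjusted p no higher than 0.05 in edgeR's quasi-likelihood test. Of the 57 members, 38 passed the filter on low counts, and 11 of these were higher and 7 lower, against a background of 17.1% higher and 17.5% lower (34.6% in either direction) among all 19357 genes tested. The called members were thus 47.4% of those tested. Another 4 passed the adjusted p but not the threshold on size, and 16 did not pass. Of all 19357 genes, 10788 passed the adjusted p and 6705 of these were called. The median log2 fold change of the 38 was 0.29, also with the members without control counts placed at their lower bound, and that of all genes was 0.04. By role, 6 of the 11 tested ligands were higher and 1 was lower, 1 of 10 Frizzled receptors was higher and 2 were lower, and 2 of the 4 tested R-spondins and LGR receptors were lower. The libraries of both groups did not overlap for any of the 18 called members. This also held for the uncalled members Fzd3, Fzd6, Fzd9, Lrp6 and Znrf3, and the share over all genes was not computed. With 3 libraries per group, the smallest two-sided p of an exact permutation test is 0.1, and the tests rest on the spread that edgeR shares across genes.

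**Figure D1:**
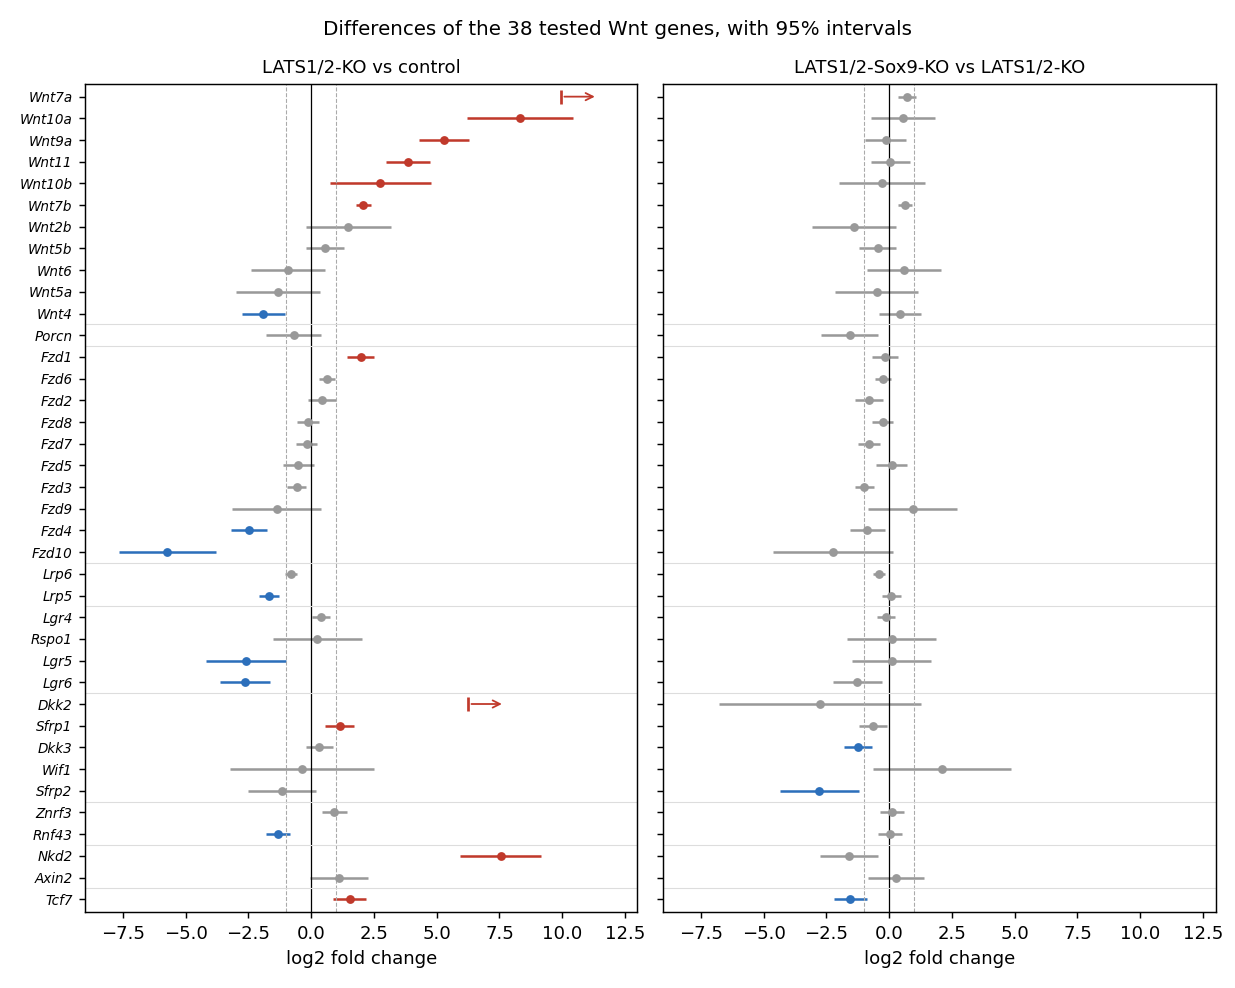
Log2 fold change of each tested member (points, with 95% intervals from edgeR), grouped by role, in the LATS1/2-KO-labelled libraries against control (left) and in those labelled LATS1/2-Sox9-KO against LATS1/2-KO (right), with called members in red (higher) or blue (lower), others in gray, and dashed lines at the threshold of 1. Arrows mark lower bounds for Wnt7a and Dkk2, which had no counts in control, and the 11 higher and 7 lower members on the left compare with 0 and 3 on the right.

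Among the ligands, Wnt7a went from no counts to an abundant transcript. Wnt7a (ENSMUSG00000030093) lies on the minus strand of chromosome 6 from 91363981 to 91411363 on GRCm38 and encodes a ligand known to signal both with and without β-catenin. Its normalized counts were 0, 0 and 0 in control, 3031, 3801 and 3623 in the LATS1/2-KO-labelled libraries, and 6870, 5284 and 4930 in the LATS1/2-Sox9-KO-labelled libraries. The mean of the LATS1/2-KO-labelled libraries was at least 985-fold higher than control, computed against a floor of 3 counts per library, or 3.54 normalized counts, which covers counting error only. It was called higher (adjusted p = 3.22e-07, edgeR), also in each of the alternatives run. Its close relative Wnt7b (chromosome 15, 85535437 to 85582473), a ligand of luminal cells, was already abundant in control, at 6231, 5575 and 5383, and reached 22338, 21826 and 28357 in the LATS1/2-KO-labelled libraries, a log2 fold change of 2.08 (SE 0.13, adjusted p = 3.11e-06, edgeR). Per kb of exon, Wnt7b remained the more abundant of the pair, by 4.77, 3.72 and 5.07 times in the LATS1/2-KO-labelled libraries and by 3.94, 4.30 and 4.73 times in the LATS1/2-Sox9-KO-labelled libraries.

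The other ligands that rose started from low control levels. Wnt11 (chromosome 7, 98835112 to 98855195), which acts largely without β-catenin and whose promoter is shown above, had 206, 347 and 609 normalized counts in control and 6600, 3700 and 6644 in the LATS1/2-KO-labelled libraries, all far above control (log2 fold change 3.87, SE 0.40, adjusted p = 3.21e-05, edgeR). Wnt9a (chromosome 11, 59306928 to 59333552), known from joint and blood stem cell development, had 54.5, 40.8 and 108 in control and 3839, 1526 and 2579 in the LATS1/2-KO-labelled libraries (log2 fold change 5.29, SE 0.45, adjusted p = 1.14e-05, edgeR). Wnt10a (chromosome 1, 74791516 to 74804179), a β-catenin-dependent ligand of skin appendages, had 2.3, 0 and 3.7 in control and 1253, 192 and 566 in the LATS1/2-KO-labelled libraries. These were 5 counts in all against 2097, a ratio of 326 after correction for effective library size, with a counting interval of 140 to 1006, and the fitted log2 fold change was 8.32 (SE 0.95, adjusted p = 6.06e-05, edgeR). The size of that change leaned on single libraries, being 7.51 without LATS1/2-KO replicate 1 and 9.03 without control replicate 3. Its paralogue Wnt10b stayed scarce, with 7.0, 0 and 2.5 in control and 36.1, 10.2 and 20.1 in the LATS1/2-KO-labelled libraries (log2 fold change 2.76, SE 0.90, adjusted p = 0.0246, edgeR). The Wnt10b call was lost without control replicate 2 (2.18), control replicate 3 (2.61) or LATS1/2-KO replicate 1 (2.22), and its log2 fold change was 4.06 without control replicate 1.

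Wnt4, the progesterone-responsive ligand of luminal cells, was the ligand that fell. Wnt4 (chromosome 4, 137277489 to 137299726) had 14068, 8325 and 14498 normalized counts in control and 4982, 1454 and 3426 in the LATS1/2-KO-labelled libraries, and the libraries did not overlap (log2 fold change -1.90, SE 0.39, adjusted p = 0.00219, edgeR). Of the 9 hormone-sensing markers, 7 fell in the same comparison and 2 did not pass. Pgr, the progesterone receptor, had 17143, 20895 and 30018 in control and 658, 121 and 358 in the LATS1/2-KO-labelled libraries. In the LATS1/2-Sox9-KO-labelled libraries Pgr was lower still, at 43.6, 15.9 and 44.6, whereas Wnt4 had 4164, 3786 and 5410. The part of hormone-sensing cells in the fall of Wnt4 was not tested.

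Wnt5a and Wnt5b, ligands known for β-catenin-independent signals, did not pass the test. Wnt5a had 3066, 6111 and 10700 normalized counts in control and 6230, 651 and 1018 in the LATS1/2-KO-labelled libraries, with LATS1/2-KO replicate 1 above 2 of the control libraries. Wnt5a was highest in control replicate 3, and it was high in LATS1/2-KO replicate 1, the libraries with the largest stromal sums of their groups (9901 and 10326). Dcn, the most abundant stromal marker in control, had 1626, 3291 and 8162 there and 1320, 289 and 1161 in the LATS1/2-KO-labelled libraries, and Col3a1, the most abundant by mean in the latter, had 89.3, 153 and 443 in control and 4067, 1244 and 706. In the LATS1/2-Sox9-KO-labelled libraries, Wnt5a did not follow the stromal sums. It had 269, 180 and 265 normalized counts per kb, with stromal sums of 3175, 4272 and 7724. The part of stromal cells in the Wnt5a levels was not tested. Without LATS1/2-KO replicate 1, the Wnt5a log2 fold change went from -1.33 to -2.98 and was called (adjusted p = 0.000944, edgeR). Wnt5b had 4213, 3100 and 1401 in control and 3276, 5153 and 4363 in the LATS1/2-KO-labelled libraries, a log2 difference of 0.55 with a 95% interval from -0.20 to 1.30. Wnt2b and Wnt6, the other tested ligands, stayed between 3.7 and 43.1 normalized counts in all libraries and did not pass.

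**Figure D2:**
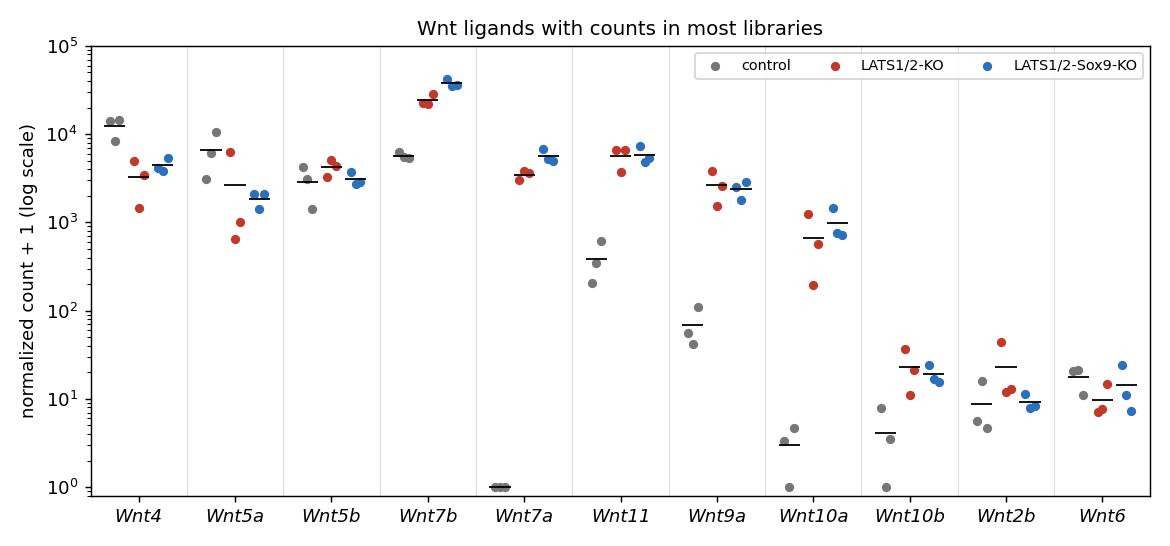
Normalized count plus 1 (log axis) of the 11 tested Wnt ligands in each of the 9 libraries (points), with the mean of each group as a black line. Wnt7a was at 0 in all 3 control libraries and between 3031 and 6870 in the other 6, Wnt4 was lower in every library with a deletion label than in any control library, and Wnt5a overlapped between control and LATS1/2-KO.

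The libraries of control did not overlap with those of either deletion label in the summed ligand level or in the shares of Wnt4, Wnt7a, Wnt7b, Wnt9a and Wnt11 in it, which was not put to a test. Summed over the 19 ligands per kb of exon, the scale on which genes can be compared, the level was 6171 ± 855 (SD, n = 3) in control, 11214 ± 1513 (SD, n = 3) in the LATS1/2-KO-labelled libraries and 14489 ± 1814 (SD, n = 3) in the LATS1/2-Sox9-KO-labelled libraries. In control, Wnt4 made up 46.8% ± 7.5 (SD, n = 3) of this sum, followed by Wnt7b at 19.2% ± 2.7, Wnt5b at 18.1% ± 8.8 and Wnt5a at 13.8% ± 7.4, the last 3 within each other's spread. In the LATS1/2-KO-labelled libraries, Wnt7b led with 44.2% ± 5.5 (SD, n = 3), ahead of Wnt5b at 14.8% ± 5.2, Wnt11 at 12.0% ± 2.2, Wnt7a at 10.001% ± 2.4, Wnt9a at 6.9% ± 2.4 and Wnt4 at 6.8% ± 3.1. The ligands behind Wnt7b in that order did not differ from their neighbors beyond their spread.

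**Figure D3:**
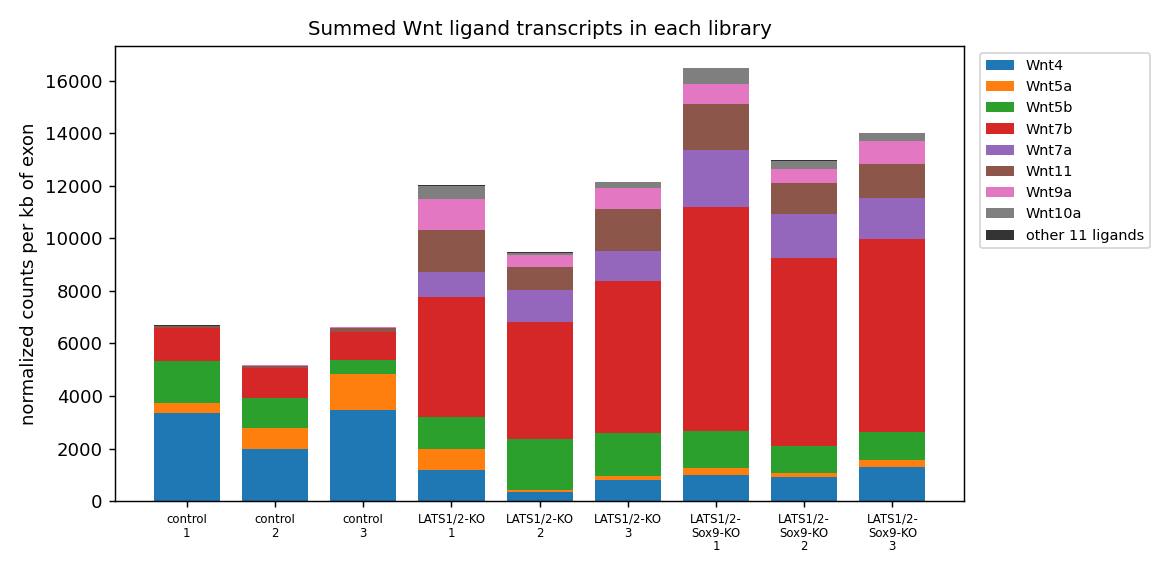
Normalized counts per kb of exon (linear axis from 0) of the Wnt ligands, stacked for each of the 9 libraries. Control bars are the lowest and consist mostly of Wnt4, Wnt5a, Wnt5b and Wnt7b, whereas Wnt7b takes the largest share of every bar with a deletion label, with Wnt7a, Wnt11 and Wnt9a above it.

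Porcn, the acyltransferase that attaches the lipid needed for Wnt secretion, had 1220, 1086 and 3954 normalized counts in control and 1821, 658 and 1372 in the LATS1/2-KO-labelled libraries, which overlapped. It did not pass (log2 fold change -0.70, SE 0.49, adjusted p = 0.253, edgeR). Control replicate 3 stood above all others, and without it the log2 difference was 0.14.

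Among the Frizzled receptors, Fzd1 rose while Fzd4 and Fzd10 fell. Fzd1 (chromosome 5, 4753839 to 4758035), a receptor for β-catenin signals, had 814, 806 and 443 normalized counts in control and 2679, 2083 and 3333 in the LATS1/2-KO-labelled libraries (log2 fold change 1.97, SE 0.25, adjusted p = 0.000102, edgeR). Fzd4 (chromosome 7, 89404355 to 89413134), the Norrin receptor of blood vessels that also binds Wnt ligands, had 2394, 2199 and 1988 in control and 387, 329 and 463 in the LATS1/2-KO-labelled libraries (log2 fold change -2.48, SE 0.32, adjusted p = 0.000120, edgeR). Both genes were well separated between the groups.

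Fzd10 (chromosome 5, 128600844 to 128604093), another receptor linked to β-catenin, nearly vanished. It had 841, 962 and 421 normalized counts in control and 10.03, 1.7 and 30.1 in the LATS1/2-KO-labelled libraries (log2 fold change -5.73, SE 0.86, adjusted p = 0.000324, edgeR), and the log2 fold change was -7.00 without LATS1/2-KO replicate 3. In the LATS1/2-Sox9-KO-labelled libraries, Fzd10 had 9 counts in all against 1911 in control, 8 of them in LATS1/2-Sox9-KO replicate 3. The level was 265-fold lower after correction for effective library size, with an interval of 139 to 580 that covers counting error only, and the fitted log2 fold change went from -7.98 to -10.25 without that replicate. Fzd6 rose by less than the threshold (0.63, SE 0.14, adjusted p = 0.00371, edgeR), from 4056, 4644 and 4295 to 5842, 7153 and 7171, and Fzd3 fell by 0.58 log2 (SE 0.16, adjusted p = 0.0127). The other 5 receptors did not pass, with Fzd5 between 1149 and 2435, Fzd7 between 669 and 1688, Fzd8 between 550 and 967, Fzd2 between 329 and 845 over all 9 libraries, and Fzd9 at no more than 16 counts. Fzd6, known for planar polarity, was the most abundant receptor per kb in each group, at 899 ± 61.3, 1395 ± 158 and 1183 ± 201 (SD, n = 3). Per kb it exceeded Fzd4 by 2.36 to 3.01 times in control and by 21.05 to 30.3 times in the LATS1/2-KO-labelled libraries.

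The LRP co-receptors both fell. Lrp5 (chromosome 19, 3584828 to 3686564) had 15836, 14794 and 15427 normalized counts in control and 4784, 3683 and 6002 in the LATS1/2-KO-labelled libraries (log2 fold change -1.67, SE 0.18, adjusted p = 4.24e-05, edgeR). Lrp6 (chromosome 6, 134446476 to 134566965) had 13306, 11220 and 11486 in control and 6025, 7500 and 7080 in the LATS1/2-KO-labelled libraries (log2 fold change -0.81, SE 0.11, adjusted p = 0.000236, edgeR), a fall short of the threshold on size. No library of either gene overlapped between the groups. Per kb, Lrp5 stood at 1.67, 1.85 and 1.89 times Lrp6 in control and at 1.11, 0.689 and 1.19 times in the LATS1/2-KO-labelled libraries. The summed co-receptor level per kb was 2455 ± 132 in control, 998 ± 118 in the LATS1/2-KO-labelled libraries and 904 ± 106 in the LATS1/2-Sox9-KO-labelled libraries (SD, n = 3).

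**Figure D4:**
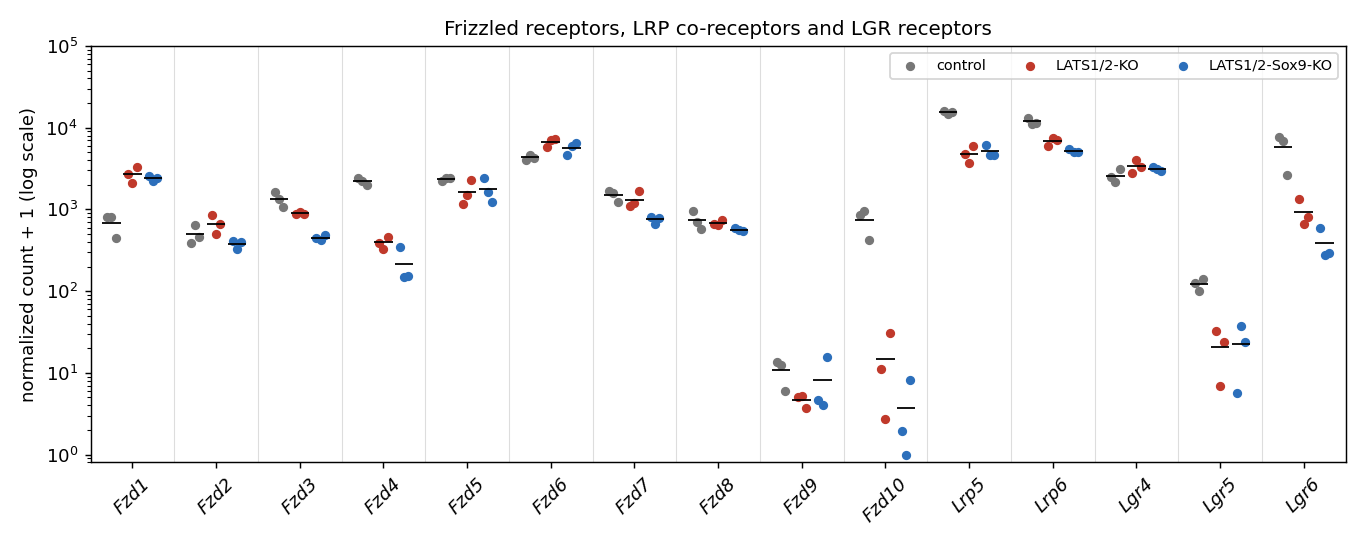
Normalized count plus 1 (log axis) of the 10 Frizzled receptors, both LRP co-receptors and the 3 LGR receptors in each library (points), with group means as black lines. Fzd4, Fzd10, Lrp5, Lrp6, Lgr5 and Lgr6 are lower and Fzd1 is higher in every library with a deletion label than in any control library.

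LGR receptors bind R-spondins and thereby spare Frizzled from degradation. Lgr6 (chromosome 1, 134983301 to 135105276) had 7706, 6846 and 2661 normalized counts in control and 1321, 655 and 804 in the LATS1/2-KO-labelled libraries (log2 fold change -2.63, SE 0.45, adjusted p = 0.000728, edgeR). Lgr5 (chromosome 10, 115450311 to 115587780), a stem cell marker, had 125, 98.7 and 138 in control and 31.1, 5.9 and 22.8 in the LATS1/2-KO-labelled libraries (log2 fold change -2.60, SE 0.71, adjusted p = 0.0106, edgeR). Both fell, whereas Lgr4 had 2480, 2135 and 3082 in control and 2818, 3966 and 3339 in the LATS1/2-KO-labelled libraries and did not pass (log2 fold change 0.40, SE 0.16, adjusted p = 0.0612, edgeR). Per kb, Lgr4 stood at 0.375, 0.363 and 1.35 times Lgr6 in control and at 2.48, 7.05 and 4.83 times in the LATS1/2-KO-labelled libraries. Rspo1, the R-spondin with counts, had 310, 308 and 16.2 in control and 378, 164 and 211 in the LATS1/2-KO-labelled libraries and did not pass, and control replicate 3 was far below the other libraries. Rspo2 and Rspo4 had no counts, and Rspo3 and Rspo4os at most 5 and 8 in a library.

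The membrane ubiquitin ligases ZNRF3 and RNF43, which remove Frizzled from the surface and are themselves Wnt targets, moved in opposite directions. Rnf43 (chromosome 11, 87662722 to 87735539) fell, from 1808, 1550 and 1298 normalized counts in control to 519, 602 and 757 in the LATS1/2-KO-labelled libraries (log2 fold change -1.31, SE 0.21, adjusted p = 0.000512, edgeR). Znrf3 (chromosome 11, 5276324 to 5444847) had 375, 367 and 299 in control and 463, 673 and 845 in the LATS1/2-KO-labelled libraries, and its rise was short of the threshold on size (log2 fold change 0.93, SE 0.22, adjusted p = 0.00505, edgeR). It was called, at 1.13, without LATS1/2-KO replicate 1. The libraries of neither gene overlapped.

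Secreted antagonists bind Wnt ligands (the Sfrp proteins, Wif1) or LRP co-receptors (the Dkk proteins, with Dkk3 as an outlier of that family). Sfrp1 (chromosome 8, 23411502 to 23449632) rose from 148, 94.1 and 121 normalized counts to 276, 298 and 222 (log2 fold change 1.13, SE 0.25, adjusted p = 0.00350, edgeR), and fell short of the threshold on size without control replicate 2 (0.97). Dkk2 (chromosome 3, 132085292 to 132180304) was called too, but its level rested on 1 library. It had 0, 0 and 0 in control and 792, 2.5 and 8.2 in the LATS1/2-KO-labelled libraries, where the mean was at least 75.7-fold higher than control and the lowest library was under the floor. Without LATS1/2-KO replicate 1 Dkk2 was not called (adjusted p = 0.0518, edgeR), nor without any of the control libraries (adjusted p from 0.0520 to 0.0551). Dkk3 had 371, 591 and 559 in control and 651, 467 and 795 in the LATS1/2-KO-labelled libraries, and Sfrp2 had 116, 73.7 and 162 in control and 94.3, 14.4 and 48.3. Neither passed, although Sfrp2 was called lower without LATS1/2-KO replicate 1 (log2 fold change -1.90, adjusted p = 0.0255, edgeR). Wif1 had 12.8, 3.4 and 3.7 in control and 16.05, 0 and 0 in the LATS1/2-KO-labelled libraries. It was called lower without LATS1/2-KO replicate 1 (adjusted p = 0.0113, edgeR). That fit left the LATS1/2-KO label without counts, against 11, 3 and 3 raw counts in control, near the floor of 3. The size of the fall is therefore not given.

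Feedback inhibitors are induced by β-catenin in many tissues and dampen the pathway. Nkd2 (chromosome 13, 73818534 to 73847631), which binds Dishevelled, rose from 30.2, 22.7 and 6.2 normalized counts in control to 4768, 2793 and 3671 in the LATS1/2-KO-labelled libraries (log2 fold change 7.55, SE 0.73, adjusted p = 2.23e-05, edgeR). Its paralogue Nkd1 did not reach the filter, with 23.2, 10.2 and 6.2 in control and 0, 5.1 and 5.5 in the LATS1/2-KO-labelled libraries. Axin2, the scaffold most used as a readout of β-catenin activity, was scarce, with 18.6, 49.9 and 64.7 in control and 102, 42.4 and 143 in the LATS1/2-KO-labelled libraries. These overlapped, and Axin2 did not pass (log2 fold change 1.11, SE 0.52, adjusted p = 0.0969, edgeR), although it was called at 1.46 without LATS1/2-KO replicate 2. Part of an Axin2 exon overlaps an antisense gene. The study's methods describe the counted pairs as same strand, but the library kit does not mark strand, so reads of such overlaps cannot be told apart. The same holds for Fzd5, Fzd6, Lef1, Notum, Rspo3, Sfrp2, Wnt5a, Wnt7b and Wnt11. Notum, a secreted enzyme that strips the lipid from Wnt proteins, had at most 4 counts in a library.

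Of the TCF/LEF factors among the members, Tcf7 (chromosome 11, 52252371 to 52283014) rose from 362, 263 and 279 normalized counts in control to 554, 802 and 1274 in the LATS1/2-KO-labelled libraries (log2 fold change 1.54, SE 0.29, adjusted p = 0.00140, edgeR). Lef1 had 1 count in 1 of the 9 libraries.

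**Figure D5:**
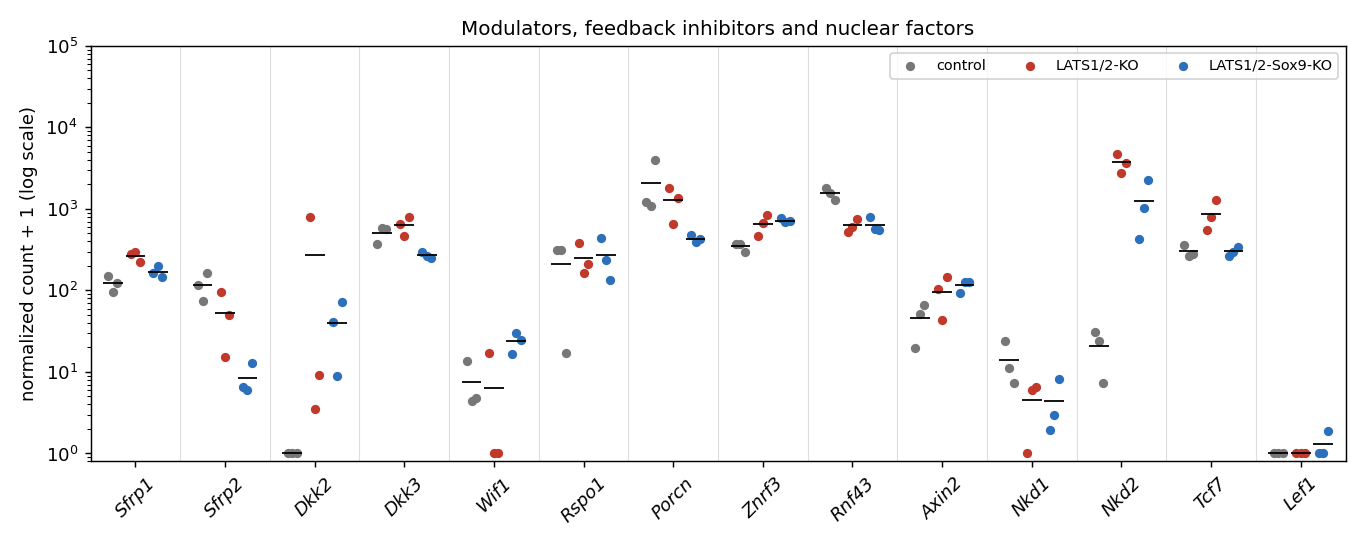
Normalized count plus 1 (log axis) of Porcn, Rspo1 and the antagonists, ubiquitin ligases, feedback inhibitors and nuclear factors in each library (points), with group means as black lines. Nkd2 goes from at most 30.2 in control to at least 428 with a deletion label, Tcf7 is raised in LATS1/2-KO alone by group mean, and Dkk2 in LATS1/2-KO rests on a single library at 792.

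Comparing the LATS1/2-Sox9-KO-labelled libraries with the LATS1/2-KO-labelled libraries addresses how the Wnt genes differ with the floxed Sox9 alleles added to those of Lats1 and Lats2. No member was higher and 3 were lower, against a background of 1.55% higher and 2.16% lower (3.71% in either direction) of the 19357 genes. These 3 were 7.89% of the 38 tested members, 4 others passed the adjusted p alone and 31 did not pass. Of all 19357 genes, 1249 passed the adjusted p and 719 of these were called. The median log2 fold change was -0.25 over the members and -0.02 over all genes. Since no member was called higher, the count of 0 was set beside DESeq2, which gave 0 as well, and beside the unadjusted edgeR test. In the latter, 2 members, Wnt7a and Wnt7b, were higher and 12 were lower at a p under 0.05. The share of all genes at that cut was not computed, so these 2 counts have no background. Of 68 tested cell type markers, 2 were higher and 9 lower in this comparison. Basal markers had 1 higher and 4 lower of 12, and hormone-sensing markers 1 higher and 1 lower of 9. Luminal progenitor markers had 3 lower of 9, and endothelial markers 1 lower of 6. The part of these cells was not tested.

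Tcf7, Dkk3 and Sfrp2 were the members that fell. Tcf7 had 262, 296 and 343 normalized counts in the LATS1/2-Sox9-KO-labelled libraries against 554, 802 and 1274 in those labelled LATS1/2-KO (log2 fold change -1.54, SE 0.29, adjusted p = 0.0172, edgeR). Its control level was 301 ± 53.1 (SD, n = 3). Dkk3 had 293, 267 and 249 against 651, 467 and 795 (log2 fold change -1.24, SE 0.25, adjusted p = 0.020, edgeR), and Sfrp2 had 5.6, 5.0 and 11.8 against 94.3, 14.4 and 48.3 (log2 fold change -2.78, SE 0.70, adjusted p = 0.0454, edgeR). The libraries of these genes did not overlap, but the calls were fragile. Tcf7 lost its call without LATS1/2-Sox9-KO replicate 1 (log2 fold change -1.43) or replicate 2 (-1.51). Dkk3 lost it without LATS1/2-KO replicate 3 (-1.05) or any LATS1/2-Sox9-KO library (-1.28, -1.21 and -1.16 without replicates 1, 2 and 3). With single libraries left out, Sfrp2 kept it only without LATS1/2-KO replicate 2 or control replicate 3. It also lost it with both groups fitted alone, and its log2 fold change was -2.04 without LATS1/2-KO replicate 1.

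The ligands induced in the LATS1/2-KO-labelled libraries were not called lower with the Sox9 label. Wnt7a (log2 fold change 0.71, SE 0.16, adjusted p = 0.0415, edgeR) and Wnt7b (0.64, SE 0.13, adjusted p = 0.0223) rose further but short of the threshold on size, Wnt7b reaching 41764, 35051 and 36009 normalized counts. Wnt11 had 7296, 4875 and 5382, Wnt9a 2518, 1807 and 2876, and Wnt10a 1457, 761 and 727 in the LATS1/2-Sox9-KO-labelled libraries. All 3 overlapped with the LATS1/2-KO-labelled libraries, with log2 differences of 0.05 (95% interval -0.73 to 0.83), -0.14 (-0.95 to 0.67) and 0.55 (-0.72 to 1.83). The Wnt10a difference was 1.37 without LATS1/2-KO replicate 1, still not called (adjusted p = 0.124, edgeR). Wnt4, at 4164, 3786 and 5410, did not pass either, with a difference of 0.44 (-0.41 to 1.28). Wnt7b made up 53.1% ± 1.8 (SD, n = 3) of the ligand sum per kb, ahead of Wnt7a at 12.4% ± 1.1, Wnt11 at 9.7% ± 0.9, Wnt5b at 8.0% ± 0.5 and Wnt4 at 7.4% ± 1.6.

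Other members were lower with the Sox9 label without being called. Nkd2 had 428, 1020 and 2269 normalized counts in the LATS1/2-Sox9-KO-labelled libraries, all below the lowest LATS1/2-KO-labelled library and all above control, with a log2 difference of -1.59 (95% interval -2.76 to -0.43, adjusted p = 0.104, edgeR). It was called, at -2.35, without LATS1/2-Sox9-KO replicate 3, and also without a filter on low counts. Porcn had 480, 391 and 424 (log2 difference -1.57, adjusted p = 0.0979) and was called without control replicate 3 (-1.55, adjusted p = 0.0230, edgeR), without a filter on low counts, and with both groups fitted alone. Lgr6 had 588, 279 and 291 (log2 difference -1.26, adjusted p = 0.120), and DESeq2 called it, as did edgeR without a filter on low counts and with the replicate block (-1.30). Fzd3, at 446, 423 and 482, fell by 0.99 log2 (adjusted p = 0.0120, edgeR), just under the threshold on size, and Fzd7, at 816, 669 and 775, fell by 0.81 (adjusted p = 0.0370). Fzd3 was called without LATS1/2-KO replicate 1 (-1.005) or LATS1/2-Sox9-KO replicate 3 (-1.02), and with upper-quartile factors. Fzd4, at 345, 146 and 151, overlapped and did not pass, but was called at -1.37 without LATS1/2-Sox9-KO replicate 1.

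The remaining surface and feedback genes had levels in the LATS1/2-Sox9-KO-labelled libraries that did not pass against the LATS1/2-KO-labelled libraries. Lrp5 had 6105, 4603 and 4650 (log2 difference 0.09, 95% interval -0.31 to 0.48), Lrp6 5457, 4972 and 5093 (-0.41, -0.66 to -0.15, adjusted p = 0.0638), and Rnf43 804, 569 and 552 (0.04, -0.43 to 0.50). Fzd1 had 2566, 2249 and 2449, Fzd10 0.9, 0 and 7.3, Lgr5 4.6, 36.9 and 22.8, Sfrp1 161, 196 and 147, and Dkk2 39.9, 8.0 and 70.1, none of which passed. The Dkk2 log2 difference of -2.75 was 2.86 without LATS1/2-KO replicate 1, also short of the threshold (adjusted p = 0.148, edgeR), and that of Fzd10, -2.25, was -0.97 without LATS1/2-KO replicate 3 and -4.51 without LATS1/2-Sox9-KO replicate 3. Axin2 had 92.8, 128 and 127 and Znrf3 768, 687 and 701. Nkd1 had 0.9, 2.0 and 7.3, and Notum 3.7, 4.0 and 1.8. Wif1 had 15.8, 28.9 and 23.7 against 16.05, 0 and 0, and was called higher without LATS1/2-KO replicate 1, where the groups no longer overlapped (adjusted p = 0.0181, edgeR).

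Against control, the LATS1/2-Sox9-KO-labelled libraries had 10 members higher and 11 lower, with a background of 17.8% higher and 19.6% lower (37.4% in either direction). This comparison shares its control libraries with the LATS1/2-KO comparison, so the values are given side by side only. Axin2 and Znrf3 were called higher here, with log2 fold changes of 1.38 (SE 0.52, adjusted p = 0.0445, edgeR) and 1.05 (SE 0.22, adjusted p = 0.00234) against 1.11 and 0.93 for LATS1/2-KO. The Axin2 call was lost without control replicate 1 (1.02) or 2 (1.48), LATS1/2-KO replicate 1 (1.39), or any LATS1/2-Sox9-KO library (1.54, 1.33 and 1.32), and that of Znrf3 without control replicate 3 (0.96). Porcn, Lrp6, Fzd3 and Sfrp2 were called lower, at -2.27, -1.21, -1.57 and -3.94, against -0.70, -0.81, -0.58 and -1.17 for LATS1/2-KO. Porcn was -1.41 without control replicate 3. Tcf7 (-0.00, 95% interval -0.65 to 0.64) and Sfrp1 (0.47, -0.09 to 1.03) did not pass, nor did Dkk2 (adjusted p = 0.0896, edgeR), which was called higher by DESeq2, without a filter on low counts, with the replicate block, and without LATS1/2-KO replicate 1 or 2. Wnt5a (-1.83, adjusted p = 0.0616, edgeR) was called lower without control replicate 1 (-2.17), LATS1/2-KO replicate 1 (-1.83) or LATS1/2-KO replicate 2 (-1.81), and also without a filter on low counts or with both groups fitted alone. Fzd7 (-0.99) was called lower by DESeq2 and with DESeq2's size factors in edgeR (both -1.01), and without control replicate 3 (-1.10) or LATS1/2-Sox9-KO replicate 1 (-1.03), and Dkk3 (-0.91) without control replicate 1 (-1.09). The Wnt10b call (2.46) was lost without control replicate 2 (1.88) or 3 (2.34), LATS1/2-KO replicate 3 (2.47) or any LATS1/2-Sox9-KO library (2.25, 2.56 and 2.61), and the value was 3.77 without control replicate 1. Wif1 (1.76, adjusted p = 0.242, edgeR) did not pass but was called higher with both groups fitted alone. Wnt7a was at least 1609-fold higher than control. Whether the genotypes differ in these effects was tested above, between both deletion labels. There Tcf7, Dkk3 and Sfrp2 were called. Axin2, Znrf3, Porcn, Lrp6, Fzd3, Fzd7, Sfrp1, Dkk2, Wif1, Wnt5a and Wnt10b were not.

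The 19 untested members were close to silent, with at most 21 counts in any library (Wnt2). Wnt3, Wnt3a, Dkk4, Rspo2 and Rspo4 had no counts, where up to 3 counts per library cannot be told from 0. Wnt1, Wnt8a, Wnt8b, Wnt9b and Wnt16 had at most 4, 3, 3, 13 and 2 counts in a library, and Dkk1, Sfrp4 and Sfrp5 at most 8, 12 and 3. The β-catenin-dependent ligands Wnt1, Wnt3 and Wnt3a were thus not detectable at this depth or nearly so in all 3 genotypes.

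The rest of the pathway was examined in a list of 89 genes, of which 78 were tested. In the LATS1/2-KO-labelled libraries against control, 16 were higher and 21 lower, against the 17.1% higher and 17.5% lower of all genes tested, the background for its sub-lists as well. Another 20 passed the adjusted p alone and 21 did not pass, where 10788 of all 19357 genes passed it and 6705 of these were called. The median log2 fold change was -0.45 against 0.04 over all genes. Among secreted and surface genes, 6 of 16 tested were higher and 4 lower. The ROR receptors, which bind WNT5A, went in opposite directions. Ror1 rose from 310, 422 and 153 normalized counts to 1175, 3566 and 3136 (log2 fold change 3.15, SE 0.47, adjusted p = 0.000297, edgeR), while Ror2 fell from 535, 963 and 1055 to 66.2, 7.6 and 55.6 (-4.31, SE 0.79, adjusted p = 0.00115). The antagonist Sostdc1 (2.89) and the glypican Gpc3 (2.96) rose, and the glypican Gpc6 (-2.03) and the secreted protein Cthrc1 (-1.30, lost at -0.94 without control replicate 2) fell. Wls, the carrier that brings Wnt proteins to the surface, rose by 0.50 log2 (adjusted p = 0.0123, edgeR), short of the threshold on size.

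Ctnnb1, which encodes β-catenin, had 59806, 58342 and 57622 normalized counts in control and 60556, 58553 and 55361 in the LATS1/2-KO-labelled libraries, a log2 difference of -0.01 (SE 0.09, adjusted p = 0.932, edgeR). Of 22 tested genes of the cytoplasmic cascade, 1 was higher and 5 were lower. The Dishevelled antagonist Dact2 rose (1.96), while the β-catenin ubiquitin ligase subunit Btrc (-1.84), the Dishevelled-binding Cxxc5 (-1.81) and the destruction complex scaffolds Apc2 (-3.16, and -4.01 without LATS1/2-KO replicate 1) and Apc (-1.11, lost at -0.95 without control replicate 3) fell. Of 13 tested nuclear factors, 5 were lower. Tcf7l2 fell from 4173, 3616 and 2071 to 835, 634 and 789 (-2.13, SE 0.24, adjusted p = 6.28e-05, edgeR), in contrast to the rise of Tcf7, and the corepressor Tle2 (-2.29, and -2.88 without LATS1/2-KO replicate 1) and the δ-catenin gene Ctnnd2 (-4.59) fell as well.

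Of 12 tested planar polarity genes, 3 were higher, among them Prickle1 (2.11) and Vangl1 (1.71), and 4 lower, among them Celsr2 (-2.77), Prickle3 (-1.41) and Invs (-1.45, from -1.07 to -2.43 with single libraries left out, and not called without LATS1/2-KO replicate 2 or 3 or any control library, or with both groups fitted alone). Of 15 tested textbook target genes outside the members, 6 were higher and 3 lower. Fst, which encodes the activin antagonist follistatin, rose from 108, 66.9 and 48.5 normalized counts to 5374, 6635 and 7910 (log2 fold change 6.47, SE 0.35, adjusted p = 1.46e-06, edgeR). The adhesion receptor Cd44 (2.68) and the growth factor Fgf20 (2.55) rose, and Ephb3 (-2.12) and Jun (-2.10) fell. Myc and Ccnd1 did not pass (-0.36 and 0.32).

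In the LATS1/2-Sox9-KO-labelled libraries against the LATS1/2-KO-labelled libraries, 4 of the 78 genes were higher and 4 lower, against 1.55% higher and 2.16% lower of all genes tested. Their median log2 fold change was -0.15, against -0.02 over all genes. Procr, a marker of mammary stem cells, rose from 417, 213 and 337 normalized counts to 3400, 3372 and 2475 (log2 fold change 3.26, SE 0.25, adjusted p = 0.000867, edgeR). Id2 (1.75), the syndecan Sdc1 (1.33) and Fst (1.30) were the other genes that rose. Cd44, at 60192, 32844 and 36463 against 81915, 92143 and 97200, was not called (log2 difference 1.07, adjusted p = 0.0746, edgeR), but DESeq2 called it higher, as did edgeR without a filter on low counts, with both groups fitted alone, and without control replicate 3 or LATS1/2-KO replicate 1. The glypicans Gpc3 (-1.82), Gpc4 (-1.45) and Gpc6 (-1.35) and the Dishevelled-binding Cxxc4 (-1.71) fell. Gpc4 had 4887, 6666 and 8839 in the LATS1/2-KO-labelled libraries and 2978, 2210 and 2302 in the LATS1/2-Sox9-KO-labelled libraries (adjusted p = 0.00803, edgeR). The Procr, Id2 and Gpc4 calls held with each library left out in turn. Those of Gpc3 (-1.51 to -2.09) and Cxxc4 (-1.56 to -1.90) were lost without LATS1/2-KO replicate 2 or 3 or any LATS1/2-Sox9-KO library, and with the replicate block. That of Fst (1.08 to 1.45) was lost without replicate 2 or 3 of either label, that of Sdc1 (1.29) without LATS1/2-KO replicate 3, and that of Gpc6 (-1.05 to -1.34) without any library but LATS1/2-KO replicate 1 or LATS1/2-Sox9-KO replicate 2. Cxxc4 and Gpc6 were also not called with both groups fitted alone. Wls fell by 0.56 log2 (adjusted p = 0.0473, edgeR), short of the threshold on size, and Ctnnb1 differed by -0.18 (adjusted p = 0.283).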

How the data were processed

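Reads from EYFP+ sorted cells were processed by the authors with FastQC 0.11.7, STAR 2.6.0c against mm10 and featureCounts of Subread 1.6.2, and the deposited values are raw counts of read pairs per Ensembl gene, unnormalized. Their methods restrict counting to unique, proper pairs and name a same-strand rule, though the library kit (TruSeq RNA) does not mark strand. Symbols came from GENCODE M21 for 55104 of 55450 genes, and promoters from RefSeq. The members and lists were chosen with earlier results of these data known.

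Counts of all 9 libraries were fitted with edgeR 4.0.16 (R 4.3.3, limma 3.58.1), using TMM factors, filterByExpr, 1 mean per genotype and the quasi-likelihood test, with Benjamini-Hochberg adjustment over the 19357 genes tested. The test was checked on simulated data. A called gene had a log2 fold change beyond 1 in either direction with adjusted p no higher than 0.05. Normalized counts are counts scaled to the mean effective library size, and levels were compared between genes only per kb of exon. Zero groups were set to a floor of 3 counts per library, and intervals cover 95%. Values per library were given for called members averaging 100 or more normalized counts and for the feedback, ligase, LRP, Lgr5, Porcn and nuclear genes, and for the pathway list the 3 largest rises and falls of each sub-list at that level, with Ctnnb1, Wls and Apc. Values for other members were added after they were seen. So were those of Cxxc4, Myc, Ccnd1, Krt8, Krt18, Krt14 and Igfbp5, and of Cd44 for the Sox9 label. The values of Prlr, Ly6a, Dcn, Col3a1, Pgr, Csf1r and Cd68 were also added after they were seen. Alternatives were DESeq2 1.42.0, other scaling factors and filters, glmTreat against a fold change of 2, fits of 2 groups alone, a replicate block and leaving out each library.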

Additional observations from a re-analysis of the deposited data

How the results depend on the processing

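No member's called direction was reversed by any alternative. Against a fold change of 2 (glmTreat), 7 members were higher in LATS1/2-KO against control, none (0) was lower in LATS1/2-Sox9-KO against LATS1/2-KO, and 7 were lower in LATS1/2-Sox9-KO against control. Without a filter on low counts, 6 were lower in LATS1/2-Sox9-KO against LATS1/2-KO. With each library left out in turn, LATS1/2-KO against control had 8 to 12 members higher and 7 to 10 lower, LATS1/2-Sox9-KO against LATS1/2-KO had 0 to 1 higher (Wif1, without LATS1/2-KO replicate 1) and 0 to 4 lower, and LATS1/2-Sox9-KO against control had 8 to 11 higher and 11 to 13 lower. The replicate block gave 11 higher and 7 lower, 0 higher and 4 lower, and 11 higher and 11 lower in these comparisons. Same-numbered libraries of different genotypes had correlated deviations of -0.066 to 0.170, so the numbers were not taken as pairs. Of all 19357 genes, LATS1/2-Sox9-KO against LATS1/2-KO had 301 higher and 418 lower, but 18 and 14 by glmTreat. Other fits covered other numbers of genes. DESeq2, on 31546 genes, gave 509 and 750. With a library left out, 20053 to 20199 genes were tested in the fits named next. These gave 497 higher without LATS1/2-KO replicate 1, and 121 and 157 without LATS1/2-KO replicate 3. They gave 222 lower without LATS1/2-Sox9-KO replicate 1, 123 and 78 without replicate 2 and 210 lower without replicate 3. By glmTreat, 1962 genes were higher and 2043 lower (3314 and 3391 otherwise) in LATS1/2-KO against control, and 2240 and 2468 (3449 and 3799 otherwise) in LATS1/2-Sox9-KO against control. The cause of these shifts was not tested. The 19 members below the filter had too few counts to test, and the part of depth in this was not tested.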
